A study of Mus musculus with 24 samples.

Results

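H3K4me3 regions that lay inside annotated genes but away from every annotated transcription start site (TSS) were examined in the mouse cerebral cortex. A region was taken as a gene-body region when it lay on chromosomes 1 to 19, was more than 1000 bp from every TSS of GENCODE M1 on the mm9 genome, and overlapped an annotated gene. By this rule, 1472 of the 17993 H3K4me3 regions in the deposited count files were gene-body regions, whereas 13696 were within 1000 bp of a TSS (TSS regions), 2206 were intergenic and 619 lay outside chromosomes 1 to 19. The rule used position only and no count. The regions nearest to the limit were those in Sdc2, Bmpr1b and Mbnl1, at 1003, 1012 and 1018 bp, and the nearest left out were those of Ltbp1, Syt11 and Kcnj11, at 997, 986 and 983 bp.

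The study labelled chromatin with a FLAG-tagged histone H2B in C57BL/6 mice. In the line Rosa H2B-FLAG (genotype Rosa CAG-H2B-FLAG, recombined through Vasa-Cre), the CAG promoter drove the tagged histone from the Rosa26 locus in nearly all cells. In Camk2a H2B-FLAG (CAG-floxed-pA-H2B-FLAG at Rosa26 together with CaMKCreERT2), adult males received tamoxifen, and the tag was made after recombination in neurons in which the Camk2a promoter drives CreERT2, mainly excitatory projection neurons. Each lysate held the pooled cortex of a pair of animals. For each line, 3 libraries were made by single ChIP-Seq with an H3K4me3 antibody, which reads the mark in all cells, and 3 by tandem ChIP-Seq (tChIP-Seq), in which chromatin was first pulled down by its FLAG tag. Both lines thus carried the tagged histone, and no library came from mice without it. Input and FLAG libraries were not analysed here.

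H3K4me3 is written by the SET1 and MLL methyltransferase complexes and is best known as a mark of the start sites of active genes, where it usually covers CpG-rich DNA. Inside genes and far from known starts, the mark is found at internal or alternative start sites, at some strong enhancers and at the edges of broad domains. Neuronal genes are often long and have several start sites used in different cell types, so that a gene-body region can mark a start that the annotation does not list.

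The gene-body regions were short and weak compared with TSS regions. Their median width was 752 bp against 2015 bp for TSS regions and 778 bp for intergenic regions, and their median distance to a TSS was 11304.5 bp, with the farthest at 480193 bp. The median level over the 12 libraries was 6.76 CPM (counts scaled to library size and expressed per 1000000) for gene-body regions, 60.7 CPM for TSS regions and 7.55 CPM for intergenic regions, and per kb of region the medians were 9.36, 28.4 and 9.99 CPM. By annotation, 934 gene-body regions lay in introns of the host gene, 458 touched a coding exon, 44 touched only a UTR exon and 36 an exon of a noncoding transcript. The host gene was protein-coding for 1363 regions and a lincRNA for 73. CpG dinucleotides were at a median of 0.47 of the number expected from base composition, against 0.60 in TSS regions and 0.49 in intergenic regions.

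A later annotation placed a start site at some of these regions. When the 60 bases around each RefSeq gene start (GRCm38 table) were searched in mm9 as an exact match, 128 gene-body regions (8.70%) had such a start within 1000 bp, and in 89 of these it lay inside the region. The same held for 76.5% of TSS regions and 17.1% of intergenic regions. For 41 of the 128 the start was that of a gene the region overlapped, and for 87 it carried a name other than those of the overlapped genes, in 70 of them only names of the Gm, LOC or Rik kind. Names were matched between an older and a newer annotation, so that some of the 87 can be renamed hosts. Named examples were the start of Abcb1a, the drug efflux pump of brain capillaries, in a region inside Rundc3b, that of Foxp1, a forkhead transcription factor, in a region inside Eif4e3, and that of Cacna1c, the pore subunit of an L-type calcium channel, in an intron of Cacna1c itself.

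Sequences are given for the gene-body regions with the largest differences between the lines in tChIP-Seq in each direction, among called regions with a mean of at least 20 counts and no overlap of the groups, because these carry the main comparison. The largest gains and losses named below follow the same limits. The central 300 bases of each are shown in mm9, in lower case with CG dinucleotides in capitals.
Dock4 region, chr12:41521212-41521511, plus strand: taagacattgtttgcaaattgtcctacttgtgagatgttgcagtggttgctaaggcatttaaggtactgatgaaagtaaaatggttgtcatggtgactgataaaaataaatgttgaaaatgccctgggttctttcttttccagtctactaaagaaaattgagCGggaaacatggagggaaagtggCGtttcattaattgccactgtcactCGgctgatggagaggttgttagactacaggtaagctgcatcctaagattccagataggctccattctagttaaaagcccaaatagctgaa
Iqcj region, chr3:67859369-67859668, plus strand: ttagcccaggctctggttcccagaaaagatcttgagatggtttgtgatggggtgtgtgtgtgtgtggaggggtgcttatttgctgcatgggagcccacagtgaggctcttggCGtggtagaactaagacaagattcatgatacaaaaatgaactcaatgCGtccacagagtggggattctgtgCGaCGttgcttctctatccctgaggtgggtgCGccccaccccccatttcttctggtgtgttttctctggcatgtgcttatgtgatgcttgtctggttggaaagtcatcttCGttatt
Sorbs3 region, chr14:70591563-70591862, plus strand: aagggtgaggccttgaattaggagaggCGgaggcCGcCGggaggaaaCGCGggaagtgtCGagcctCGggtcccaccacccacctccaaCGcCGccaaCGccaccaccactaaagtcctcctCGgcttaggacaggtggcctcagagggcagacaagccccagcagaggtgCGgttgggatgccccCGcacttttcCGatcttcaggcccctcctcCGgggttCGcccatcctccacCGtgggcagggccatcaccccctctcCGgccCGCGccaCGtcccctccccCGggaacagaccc
Rundc3b region, chr5:8568216-8568515, plus strand: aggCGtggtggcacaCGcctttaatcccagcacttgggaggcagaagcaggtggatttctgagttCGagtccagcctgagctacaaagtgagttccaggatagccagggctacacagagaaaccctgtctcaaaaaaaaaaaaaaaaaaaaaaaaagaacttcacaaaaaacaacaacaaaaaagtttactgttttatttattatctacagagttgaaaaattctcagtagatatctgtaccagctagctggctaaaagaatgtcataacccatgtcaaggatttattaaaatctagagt
These stretches held 3, 6, 22 and 3 CG dinucleotides, in that order, and over the whole regions the observed to expected ratio was 0.32, 0.42, 0.44 and 0.22. The stretch from Sorbs3 was thus the richest of the 4 in CG, and that from Rundc3b the poorest as a whole region. For the RefSeq starts of Abcb1a and Foxp1, chosen for display after their values were seen, the 60 matched bases are shown on the strand of the gene, with the first 30 transcribed bases in capitals.
Abcb1a start, chr5:8567061-8567120, plus strand: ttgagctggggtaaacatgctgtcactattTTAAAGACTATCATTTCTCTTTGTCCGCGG
Foxp1 start, chr6:99470958-99471017, minus strand: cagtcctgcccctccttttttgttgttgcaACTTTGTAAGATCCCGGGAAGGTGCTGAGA

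Depth limits what can be said of these weak regions. The 12 libraries held 1457261 to 8644574 counts over all regions, with the lowest totals in Rosa tChIP (1457261 to 1828371) and the highest in Rosa single ChIP (6316125 to 8644574). The median gene-body region had 13 to 16 counts per library in Rosa tChIP, 23 to 25 in Camk2a tChIP, 22 to 24 in Camk2a single ChIP and 29 to 40 in Rosa single ChIP. In Rosa tChIP, 446 to 565 of the 1472 regions had fewer than 10 counts in a library, so that small differences at such regions were not detectable at this depth. The labelled lines were checked at TSS regions of marker genes. In Camk2a tChIP against Rosa tChIP, TSS regions of excitatory neuron genes were higher in 54 of 67 and lower in none, and those of astrocyte, oligodendrocyte, microglia and endothelial genes were lower in 32 of 48, 26 of 44, 9 of 22 and 45 of 53 and higher in 5, 3, 1 and 2.

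Gene-body regions took a small share of all counts, and the share was larger after tandem than after single ChIP in both lines. The share was 1.69, 1.69 and 1.68% in the 3 Rosa single ChIP libraries and 2.26, 2.24 and 2.27% in Rosa tChIP. It was 1.81, 1.83 and 1.83% in Camk2a single ChIP and 2.32, 2.33 and 2.39% in Camk2a tChIP. No library of one group overlapped another group. As mean ± SD (n = 3), the groups stood at 1.69 ± 0.00412, 2.26 ± 0.0153, 1.82 ± 0.0134 and 2.35 ± 0.0391%, and the tChIP libraries lay 0.567 points higher in Rosa and 0.527 points higher in Camk2a. Each comparison of 3 against 3 libraries gave p = 0.1 in a two-sided exact permutation test, the smallest it allows. Permuting the kind of ChIP within both lines gave a difference of 0.547 points with an exact p = 0.005, the smallest of 400 arrangements, and permuting the line within both kinds gave 0.112 points, higher in Camk2a, with an exact p = 0.005. Intergenic regions moved the same way, so that neither difference was particular to gene-body regions. Their mean share was 3.22% in Rosa single ChIP and 3.96% in Rosa tChIP. In Camk2a it was 3.47% in single ChIP and 4.04% in tChIP. Against counts in TSS regions, the log2 ratio of gene-body counts rose from -5.79 to -5.35 in Rosa and from -5.67 to -5.29 in Camk2a. When only the 5237 TSS regions with total counts in the range of gene-body regions were used, an alternative added after the data were seen, the ratio differed by 0.0065 between tChIP and single ChIP in Rosa and by 0.27 in Camk2a, against 0.44 and 0.38 with all TSS regions. In Rosa, TSS regions of like counts thus gained as much as gene-body regions did, and the part of the count level in these shares was not tested.

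**Figure D1:**
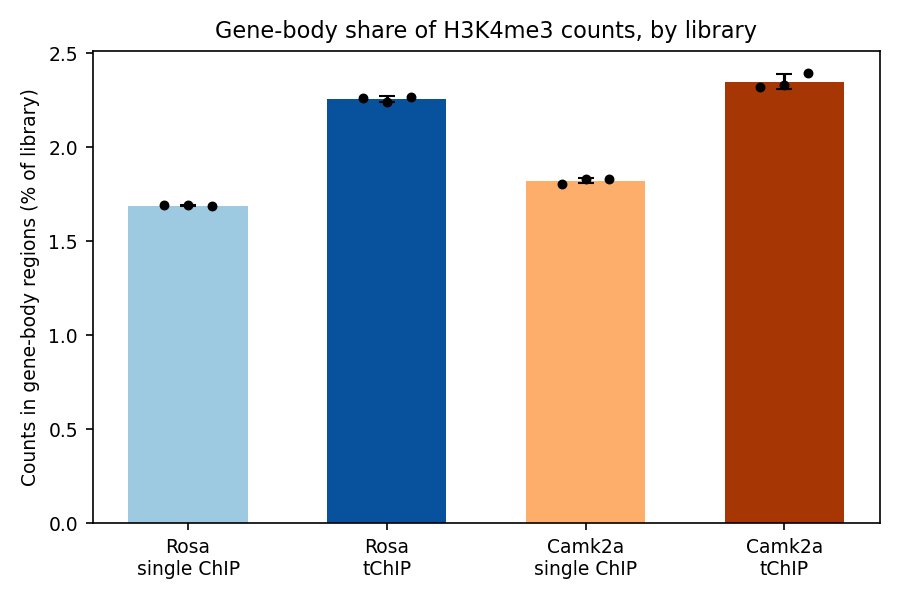
Counts in the 1472 gene-body regions as a percentage of all counts of a library (y axis) for the 4 groups (x axis); bars are means, error bars SD and points the 3 libraries of a group. Both tChIP groups, at 2.26 and 2.35%, stand above both single ChIP groups, at 1.69 and 1.82%.

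Region by region, the tandem step was followed by higher counts at gene-body regions far more often than by lower counts. In Rosa, 619 gene-body regions (42.1%) were higher and 54 (3.67%) lower in tChIP than in single ChIP (edgeR's quasi-likelihood test, adjusted p under 0.01), where 24.7% of all 17993 regions were higher and 22.5% lower. In Camk2a, 642 (43.6%) were higher and 104 (7.07%) lower, beside 25.3% and 22.6% of all regions. The median log2 fold change was 0.66 in Rosa and 0.52 in Camk2a over gene-body regions, -0.07 and -0.06 over TSS regions, and 0.54 and 0.41 over intergenic regions. Of the regions called higher, 315 were on both lists, out of 619 in Rosa and 642 in Camk2a, which is 50.9% and 49.1% of these lists. Over all regions, 1831 were higher in both lines, 41.2% of the Rosa list and 40.2% of the Camk2a list. Higher in Rosa and lower in Camk2a were 38 gene-body regions (2.58%) and 664 of all regions (3.69%).

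In Rosa, the direction varied with the level of a region. Below 5 CPM, 173 of 555 gene-body regions were higher and 1 lower in Rosa, with a median log2 fold change of 0.82, and TSS and intergenic regions of that level had medians of 0.75 and 0.75. Above 40 CPM, 15 of 97 gene-body regions were higher and 35 lower in Rosa, with medians of -0.10, -0.16 and -0.15 in the 3 classes. In Camk2a, gene-body regions were more often higher than lower at both levels: 203 and 33 of 555 below 5 CPM, and 36 and 13 of 97 above 40 CPM. There, 1704 of 9346 TSS regions of that level were higher and 2798 lower. Short host genes went with gains in Rosa, where 150 of 275 regions in genes of up to 20 kb were higher and 28 of 122 in genes over 500 kb, against 140 and 54 in Camk2a. Base composition moved with the calls as well: in Rosa the median GC content was 56.9% in the regions called higher, 47.7% in those called lower and 49.8% in the rest, and in Camk2a it was 55.5%, 49.7% and 50.2%. The part of level, depth and GC content in these calls was not tested.

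**Figure D2:**
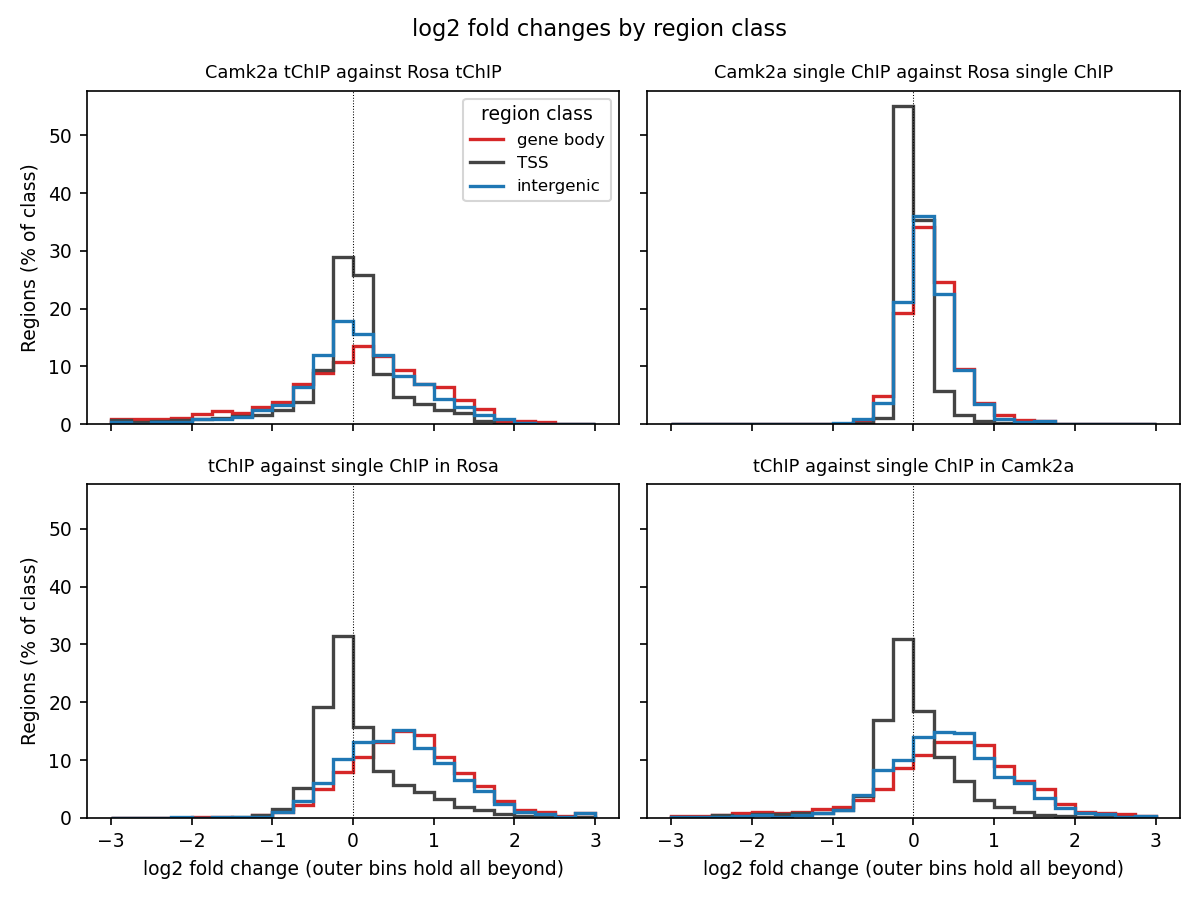
Percentage of regions of a class (y axis) by log2 fold change in bins of 0.25 (x axis) for gene-body, TSS and intergenic regions in the 4 comparisons of 2 groups; the outermost bins hold all values beyond them. In both panels of tChIP against single ChIP the gene-body curve is shifted to the right, with medians of 0.66 and 0.52, and in the panel of the lines in tChIP it is the widest.

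Named regions show both sides of the tandem step. The largest gains in Rosa were at Otp, a homeobox gene of the hypothalamus, Arhgap9, a GTPase-activating protein of blood cells, and Cilp2, a cartilage matrix gene. At the coding exon of Otp (chr13:95652939-95653618), Rosa single ChIP gave 2.75, 2.51 and 2.94 CPM and Rosa tChIP 13.0, 17.3 and 13.8 CPM (2.43 ± 0.26 (SE), adjusted p = 2.16e-19). In Camk2a the same region stood at 1.97, 2.15 and 1.99 CPM in single ChIP and 9.51, 5.05 and 7.37 CPM in tChIP, so that it was higher there too (1.84, adjusted p = 2.54e-07). Arhgap9 and Cilp2 were higher by 2.26 and 2.15 on the log2 scale in Rosa and by 1.44 and 0.90 in Camk2a. One library set much of the spread at Cilp2, whose Rosa tChIP values were 8.35, 22.7 and 9.19 CPM.

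The largest gains in Camk2a were at Hpse2, Vgll2 and Fev. Fev encodes the ETS factor of serotonin neurons, Vgll2 a cofactor of TEAD factors known from muscle, and Hpse2 an inactive relative of heparanase. At Fev (chr1:74928511-74929525), all 6 tChIP libraries, at 14.4 to 17.9 CPM in Rosa and 20.6 to 21.7 CPM in Camk2a, lay above the 6 single ChIP libraries, at 4.58 to 5.21 and 4.06 to 5.48 CPM. The log2 fold changes were 1.79 ± 0.22 in Rosa and 2.13 ± 0.20 in Camk2a, with adjusted p = 2.83e-14 and 2.57e-19. Hpse2 and Vgll2 were higher by 2.51 and 2.26 in Camk2a and by 1.28 and 1.40 in Rosa.

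The largest losses in Rosa were at Dock4, Rabgap1l and Syne1, and in Camk2a at Gng11, Ccdc8 and Rundc3b. Syne1 encodes nesprin-1, a giant protein of the nuclear envelope. Its region (chr10:4977616-4980840) fell from 54.3, 50.8 and 56.9 CPM to 27.7, 26.8 and 17.1 CPM in Rosa (-1.14 ± 0.13 (SE), adjusted p = 5.91e-18), and in Camk2a it stood at 60.1, 62.5 and 56.3 CPM in single ChIP and 66.3, 63.9 and 66.7 CPM in tChIP (0.14, adjusted p = 0.15). Gng11, a gamma subunit of G proteins, fell from 13.0, 11.5 and 10.7 CPM to 2.30, 1.80 and 2.58 CPM in Camk2a (-2.38 ± 0.29 (SE), adjusted p = 7.51e-13). In Rosa the Gng11 region rose from 14.5, 14.4 and 10.8 CPM to 20.3, 17.9 and 19.7 CPM (0.54, adjusted p = 0.00489).

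The comparison of the lines in tChIP-Seq asks how H3K4me3 at gene-body regions differed between chromatin of Camk2a-positive neurons and of all tagged cells. Camk2a tChIP was higher at 246 gene-body regions (16.7%) and lower at 215 (14.6%), beside 17% and 14.6% of all 17993 regions, so that the share called was near that of all regions in both directions. The spread was wider, with an SD of log2 fold changes of 0.97 over gene-body regions, 0.68 over TSS regions and 0.76 over intergenic regions. The median was 0.13 over gene-body regions and -0.01 over TSS regions. In these pooled lysates, fewer cells of a type and less of the mark per cell cannot be told apart.

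The 8 gene-body regions with the largest gains are described first, and for each the 3 Camk2a tChIP libraries lay above the 3 of Rosa tChIP. Dock4 encodes an exchange factor for Rac and Rap GTPases. Its region lay at a coding exon (chr12:41520750-41521973), 348110 bp from the start of the gene, and held 3.65, 1.19 and 3.94 CPM in Rosa tChIP and 12.1, 10.8 and 16.2 CPM in Camk2a tChIP. Single ChIP gave 9.27, 8.38 and 9.65 CPM in Rosa and 9.60, 10.3 and 9.47 CPM in Camk2a, between the tChIP groups and overlapping each other. On the log2 scale the gain in tChIP was 2.14 ± 0.34 (SE), adjusted p = 1.14e-07, on 7, 2 and 6 counts in the Rosa tChIP libraries.

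Iqcj forms, with its neighbour Schip1, a joint transcript whose protein sits at the axon initial segment and nodes of Ranvier. Its region (chr3:67858874-67860163) lay 8701 bp from a Schip1 TSS and held 5.74, 7.16 and 5.25 CPM in Rosa tChIP and 23.0, 20.6 and 28.4 CPM in Camk2a tChIP (1.98 ± 0.24 (SE), adjusted p = 3.19e-11). All 3 Camk2a tChIP libraries were above every other library. The TSS region of Iqcj was higher too, by 1.46 (adjusted p = 2.05e-11).

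Elavl2 encodes the neuronal RNA-binding protein HuB, and its region, at an exon of a noncoding transcript (chr4:91047135-91048354), held 7.83, 6.56 and 7.87 CPM in Rosa tChIP and 20.7, 24.2 and 23.9 CPM in Camk2a tChIP (1.62 ± 0.23 (SE), adjusted p = 3.01e-09). Myh14, a nonmuscle myosin heavy chain, rose from 3.13, 5.37 and 7.22 CPM to 19.4, 13.7 and 19.5 CPM (1.78 ± 0.27 (SE), adjusted p = 4.76e-08), while its TSS region stood at -0.82 (adjusted p = 0.0222). The region of 5730522E02Rik, a noncoding gene model, rose from 5.22, 6.56 and 3.28 CPM to 18.4, 22.0 and 15.5 CPM (1.87 ± 0.27 (SE), adjusted p = 6.60e-09). In these 3 regions the Rosa tChIP libraries overlapped those of Rosa single ChIP, and the Camk2a tChIP libraries lay above all others.

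At the remaining gains, the single ChIP groups lay between the tChIP groups. At Rabgap1l, a Rab GTPase-activating protein, Rosa tChIP held 6.26, 8.35 and 6.56 CPM and Camk2a tChIP 21.7, 19.8 and 28.7 CPM, with both single ChIP groups between them at 13.7 to 16.7 and 15.0 to 16.9 CPM (1.73 ± 0.23 (SE), adjusted p = 1.28e-09). At Osbpl8, a lipid transfer protein of the endoplasmic reticulum, the tChIP values were 10.4, 10.1 and 12.5 CPM and 35.4, 31.8 and 35.7 CPM (1.65 ± 0.19 (SE), adjusted p = 2.33e-12). The strongest of the 8 was an intronic region of the long gene model Gm20388 (chr8:125273282-125276795), 22610 bp from the nearest TSS, that of Acsf3. It held 79.5, 74.7 and 78.0 CPM in Rosa single ChIP, 43.3, 38.2 and 35.4 CPM in Rosa tChIP, 75.8, 70.4 and 83.2 CPM in Camk2a single ChIP and 123, 131 and 121 CPM in Camk2a tChIP. On the log2 scale the gain in tChIP was 1.68 ± 0.10 (SE), adjusted p = 7.90e-26, whereas that in single ChIP was -0.02 (adjusted p = 0.901). TSS regions of Rabgap1l and Osbpl8 were at 0.17 and 0.09, with adjusted p = 0.12 and 0.375.

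In the 8 largest losses among regions with a mean of at least 20 counts, the 3 Camk2a tChIP libraries lay below the 3 of Rosa tChIP. Sorbs3 encodes vinexin, an adaptor of focal adhesions, and its region at a coding exon (chr14:70590862-70592564), the CG-rich stretch shown above, held 34.4, 32.8 and 30.2 CPM in Rosa tChIP and 5.58, 3.25 and 5.89 CPM in Camk2a tChIP (-2.71 ± 0.22 (SE), adjusted p = 1.08e-18). Both single ChIP groups lay between, at 15.8 to 20.5 and 17.7 to 20.0 CPM. Tns1 encodes tensin-1, which links integrins to actin, and its intronic region fell from 64.7, 68.0 and 61.0 CPM to 16.4, 9.38 and 12.5 CPM (-2.32 ± 0.15 (SE), adjusted p = 1.54e-23). TSS regions of both genes were lower as well, with log2 fold changes of -1.96 and -1.30.

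The region inside Rundc3b that holds the RefSeq start of Abcb1a (chr5:8566947-8569784) had 23.6, 20.1 and 20.8 CPM in Rosa single ChIP, 24.5, 19.7 and 21.0 CPM in Rosa tChIP, 22.9, 20.8 and 23.9 CPM in Camk2a single ChIP and 3.28, 3.25 and 3.68 CPM in Camk2a tChIP. The first 3 groups overlapped, and the Camk2a tChIP libraries lay far below them (-2.66 ± 0.26 (SE), adjusted p = 9.58e-15). The TSS region of Rundc3b, a RUN domain protein, stood at -0.10 (adjusted p = 0.387). Sox17, a transcription factor of vascular endothelium, had a region over its coding exon, 2678 bp from a TSS, with 41.7, 42.9 and 38.7 CPM in Rosa tChIP and 12.1, 7.58 and 9.95 CPM in Camk2a tChIP (-2.04 ± 0.18 (SE), adjusted p = 2.99e-17). In Rosa it was near the same in single ChIP, at 37.9, 37.8 and 36.3 CPM.

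Plekhg3, Arhgap23 and Arhgef19 encode regulators of small GTPases. The Plekhg3 region, which holds the RefSeq start of the locus AI463170, fell from 23.5, 17.9 and 15.1 CPM to 1.31, 4.33 and 4.79 CPM (-2.47 ± 0.29 (SE), adjusted p = 7.61e-12). The Arhgap23 region fell from 44.9, 54.3 and 74.8 CPM to 12.8, 11.2 and 15.8 CPM (-2.09 ± 0.16 (SE), adjusted p = 1.60e-19). At Arhgef19, Rosa tChIP alone stood apart: it held 19.8, 15.5 and 21.7 CPM, against 4.42 to 5.21 CPM in Rosa single ChIP, 4.18 to 6.20 CPM in Camk2a single ChIP and 2.95 to 5.77 CPM in Camk2a tChIP. Ak5, an adenylate kinase of brain, fell from 29.2, 25.0 and 30.2 CPM to 5.58, 5.77 and 2.95 CPM (-2.53 ± 0.23 (SE), adjusted p = 2.96e-16), while its TSS region was higher by 1.03 (adjusted p = 5.39e-14).

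**Figure D3:**
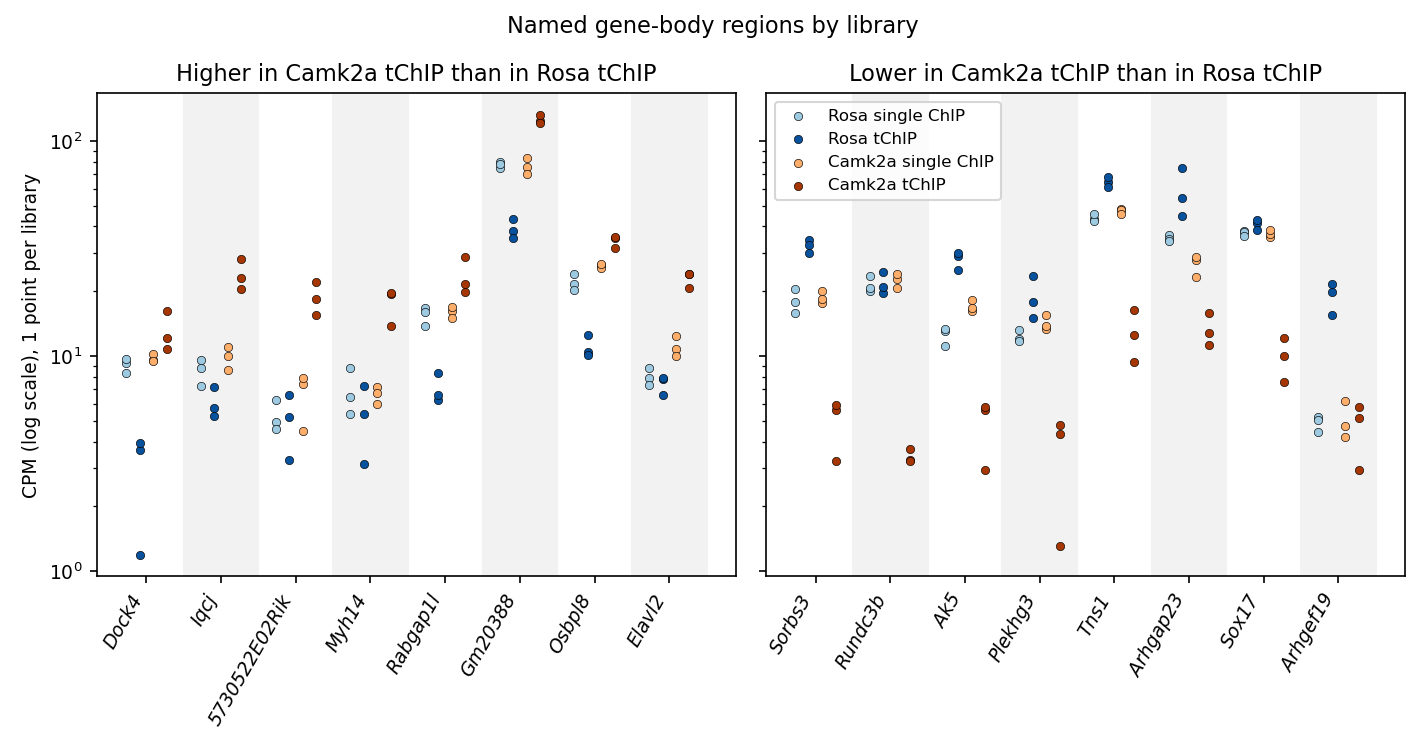
CPM (y axis, log scale) of the 16 gene-body regions with the largest differences (mean of at least 20 counts) between the lines in tChIP-Seq, 1 point per library, coloured by group. Rosa and Camk2a single ChIP lie close together at most regions, and the tChIP groups lie apart, as at Gm20388 (35.4 to 43.3 CPM in Rosa and 121 to 131 CPM in Camk2a).

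The share of calls varied with the kind of gene-body region. Regions in genes over 500 kb were higher in 32 and lower in 11 of 122 (median log2 fold change 0.40), and those in genes of 100 to 500 kb in 111 and 76 of 572. The 122 included the 10 regions of the gene model Gm20388. Those in genes of 20 to 100 kb were higher in 62 and lower in 81 of 503, and those in genes of up to 20 kb in 41 and 47 of 275. Within 2000 bp of a TSS, 22 regions were higher and 38 lower of 163, and between 20 and 100 kb from it, 88 were higher and 52 lower of 448. The regions over a UTR exon only were lower in 12 and higher in 3 of 44. Of the 97 regions above 40 CPM, 39 (40.2%) were higher and 13 (13.4%) lower, beside 20.6% and 9.88% of TSS regions of that level. A RefSeq start within 1000 bp went with 26 (20.3%) higher and 22 (17.2%) lower of 128, beside 16.7% and 14.6% of all gene-body regions. These shares were not tested, since regions are not replicates.

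**Figure D4:**
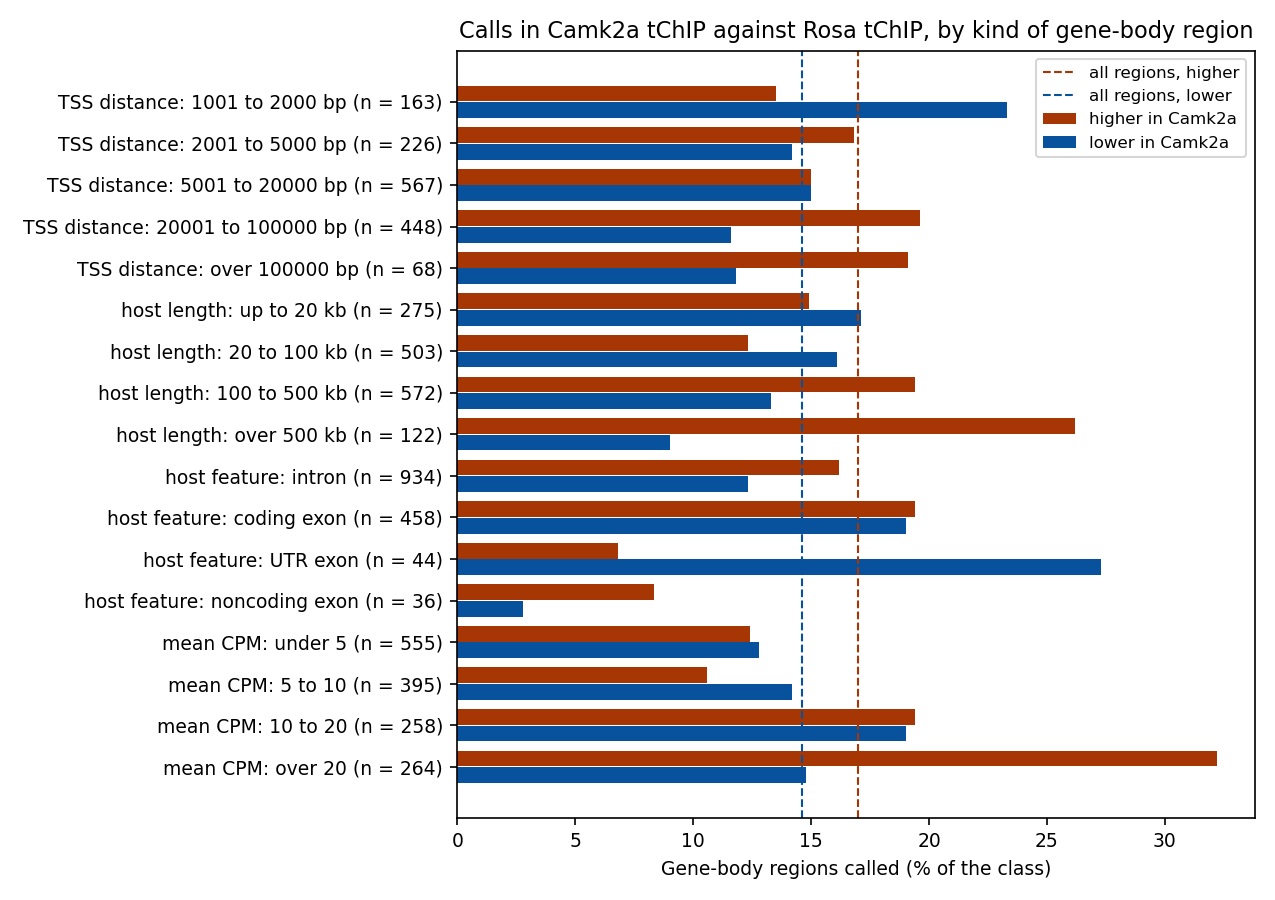
Gene-body regions called higher or lower in Camk2a tChIP than in Rosa tChIP as a percentage of each kind (x axis), by distance to the nearest TSS, length of the host gene, annotation and mean level (y axis); dashed lines give the percentages over all 17993 regions, 17% higher and 14.6% lower. Regions in genes over 500 kb and regions above 20 CPM stand out by gains, at 26.2% and 32.2%, and those over UTR exons by losses, at 27.3%.

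Calls at a gene-body region and at the TSS region of the same gene went the same way in some pairs and opposite ways in others. How many pairs of each kind the separate call rates alone would give was not computed. A TSS region was present for the host gene of 1140 gene-body regions, and in tChIP 61 pairs were higher at both and 50 lower at both, while 34 were higher in the gene body and lower at the TSS and 49 lower in the gene body and higher at the TSS. Across these 1140 pairs, which share libraries and in part promoters (902 in all), Pearson's r of the log2 fold changes was 0.12, given as a description. Genes with a TSS region that was higher in Camk2a and a gene-body region that was lower included Eef1a2, a translation elongation factor of neurons and muscle, Caly, Nav2, Celsr3 and Nova2, a neuronal splicing factor. At Eef1a2, the TSS region was at 73.7 ± 6.98 CPM in Rosa tChIP and 205 ± 8.64 CPM in Camk2a tChIP (mean ± SD, n = 3), and the gene-body region at 17.3 ± 3.91 and 5.25 ± 0.584 CPM, which gives log2 fold changes of 1.47 and -1.72. In single ChIP that gene-body region was at 5.90 CPM in Rosa and 5.37 CPM in Camk2a, so that Rosa tChIP alone stood apart. The gene-body regions of Nova2 and Celsr3 were at 57.2 and 16.9 CPM in Rosa tChIP and 25.1 and 7.64 CPM in Camk2a tChIP. There, too, single ChIP was nearer Camk2a tChIP, at 29.8 and 5.96 CPM in Rosa and 29.6 and 6.27 CPM in Camk2a. At Nav2, the TSS region was at 159 ± 5.88 and 228 ± 10.5 CPM and the most strongly lower of its 4 gene-body regions at 20.3 ± 1.22 and 4.95 ± 0.637 CPM. In single ChIP that gene-body region was at 13.3 CPM in Rosa and 11.9 CPM in Camk2a, between the tChIP groups.

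In the reverse case, the gene-body region was higher in Camk2a and the TSS region lower. At Nhsl1, 1 of its gene-body regions was at 14.3 ± 2.05 CPM in Rosa tChIP and 33.7 ± 3.32 CPM in Camk2a tChIP, and the TSS region at 31.1 ± 4.29 and 13.4 ± 2.49 CPM. Its other gene-body region was lower, like the TSS region, with a log2 fold change of -0.67. At Dok4, an adaptor of receptor tyrosine kinases, the log2 fold changes were 0.75 in the gene body and -1.05 at the TSS. At Lmx1b, a LIM homeobox factor, they were 0.85 at 1 of its gene-body regions and -2.56 at the TSS. The TSS region of Lmx1b was weak, at 13.2 ± 4.52 CPM in Rosa tChIP and 2.23 ± 0.57 CPM in Camk2a tChIP. Single ChIP was low there in both lines, at 2.43 CPM in Rosa, so that Rosa tChIP alone stood apart. At the TSS regions of Nhsl1 and Dok4, too, single ChIP was nearer Camk2a tChIP, at 16.8 and 25.2 CPM in Rosa and 16.9 and 28.7 CPM in Camk2a. Arhgap23, whose gene-body region was described above, had a TSS region that rose from 59.1 ± 5.20 CPM to 105 ± 7.17 CPM. The genes named here were chosen after their values were seen.

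Of the 41 gene-body regions with a RefSeq start of an overlapped gene within 1000 bp, 34 of which held it, 15 were higher and 7 lower in Camk2a tChIP and 19 were not called (median log2 fold change 0.45). Over all regions 17% were higher and 14.6% lower, and over gene-body regions 16.7% and 14.6%. Gene-body regions with any RefSeq start within 1000 bp were stronger than the rest, with a median of 11.1 against 6.62 CPM. Calls of higher were more frequent in stronger gene-body regions, at 32.2% above 20 CPM and 12.4% under 5 CPM. The part of level was not tested. The examples were chosen after their values were seen. Higher ones included Arhgap15 (1.55, adjusted p = 2.63e-05), Ankrd6 (1.15, adjusted p = 5.60e-11), Nup93, a nuclear pore protein (0.97, adjusted p = 4.11e-13), and those in R3hdm1 (1.47, adjusted p = 4.23e-18), in Trak1, a motor adaptor of mitochondria, at 2 regions (1.25 and 0.77), in Apbb1, an adaptor that binds the amyloid precursor protein (1.12, adjusted p = 8.12e-12), in Dlg1, a membrane scaffold of the PSD-95 family (1.01, adjusted p = 9.54e-11), in Anks1b, a postsynaptic protein (0.68, adjusted p = 8.13e-12), and in Esrrg, a nuclear receptor (0.55, adjusted p = 8.79e-06). The 7 lower ones were Ccdc8 (-2.66, adjusted p = 4.25e-10), Tet1, Abr, Ppfibp2, Hlcs and Hnrnpf (-1.62, -0.86, -0.38 and -0.29 for the last 4), and Bmpr1b, a receptor of bone morphogenetic proteins (-3.29, adjusted p = 3.08e-07), whose region lay 924 bp from the RefSeq start and 1012 bp from a GENCODE TSS. The starts in Gdnf, a neurotrophic factor, Tnrc6b, a partner of Argonaute, and Adk, adenosine kinase, were at regions with log2 fold changes of 0.12, 0.18 and -0.02 that were not called. Among starts with a name other than the host's, that of Kcnq1ot1, the imprinted antisense transcript of Kcnq1, lay at a region with 0.19 (adjusted p = 0.148). Where genes overlap, the mark at a region cannot be given to 1 of them here.

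**Figure D5:**
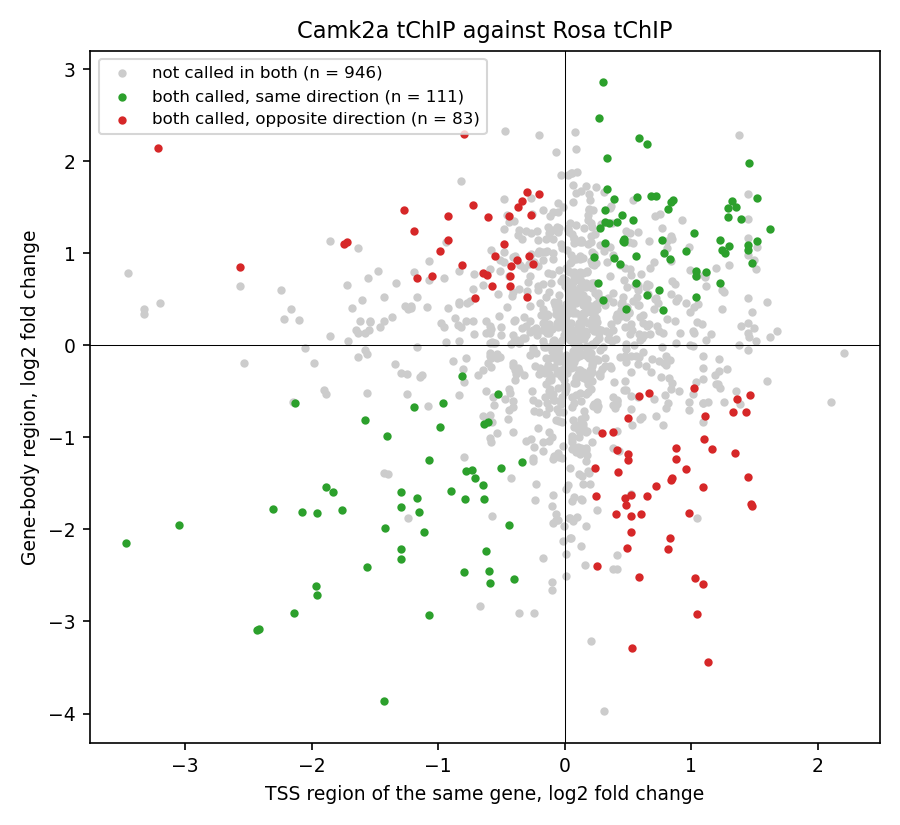
log2 fold change of Camk2a tChIP over Rosa tChIP at the strongest TSS region of the host gene (x axis) and at the gene-body region (y axis) for 1140 gene-body regions. Green points, called in the same direction at both, number 111 and red points, called in opposite directions, 83; Pearson's r over all points is 0.12.

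The host genes were also read by lists of function, whose counts stand beside 17% higher and 14.6% lower and a median log2 fold change of -0.0033 over all regions, and a median of 0.13 over gene-body regions. No list was tested against other regions. TSS regions of ion channel genes were higher at 96 and lower at 10 of 136, and those of neurotransmitter receptor genes at 55 and 5 of 74. For adhesion and guidance genes the TSS counts were 114 and 23 of 200, and for developmental transcription factors 23 and 81 of 170. Of 32 gene-body regions in 25 ion channel genes, 8 were higher and 4 lower, with a median of 0.35. Cacna1c, which also ranks among the 5 strongest gene-body regions, held 127, 139.6 and 132 CPM in Rosa tChIP and 181, 191 and 186 CPM in Camk2a tChIP (0.49 ± 0.07 (SE), adjusted p = 8.56e-10). Cacnb2, a calcium channel beta subunit, rose from 19.8, 23.3 and 17.7 CPM to 62.0, 66.0 and 57.8 CPM (1.61 ± 0.14 (SE), adjusted p = 2.57e-17). The leak potassium channels Kcnk12 and Kcnk3 were lower in the gene body, with log2 fold changes of -0.77 and -1.46, and higher at the TSS region, with 1.11 and 0.84. At Kcnk12, Rosa tChIP held 34.1 to 38.8 CPM and Camk2a tChIP 18.8 to 24.3 CPM, against 16.8 to 19.4 and 16.5 to 21.5 CPM in single ChIP of Rosa and Camk2a. At Kcnk3 the values were low, with 7.30, 9.54 and 7.87 CPM in Rosa tChIP and 2.62, 1.80 and 4.42 CPM in Camk2a tChIP. Single ChIP was lower still at Kcnk3, at 0.838 to 1.74 CPM in Rosa and 1.23 to 1.50 CPM in Camk2a. At both regions Rosa tChIP thus stood farthest apart.

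Synaptic genes were mixed. Among 15 regions in 10 excitatory neuron genes, 3 were higher and 2 lower (median 0.57), and among 6 regions in presynaptic genes, 3 were higher and 1 lower. Shank2, a scaffold of the postsynaptic density, had an intronic region (chr7:151424547-151427316) with 15.1, 25.0 and 27.6 CPM in Rosa tChIP and 55.4, 53.4 and 65.2 CPM in Camk2a tChIP (1.39 ± 0.14 (SE), adjusted p = 1.06e-13), and a further intronic region, 130334 bp into the gene, with 13.0, 10.1 and 11.2 and 32.8, 38.3 and 25.8 CPM (1.49, adjusted p = 3.11e-10). The TSS region of Shank2 was higher by 1.29. Rimbp2, which tethers calcium channels at active zones, rose from 14.1, 12.5 and 15.1 to 35.1, 41.5 and 41.6 CPM (1.50 ± 0.17 (SE), adjusted p = 3.34e-12). Unc13b and Unc13a prime synaptic vesicles: Unc13b was higher (0.64, adjusted p = 2.48e-04), and Unc13a lower, from 27.1, 18.5 and 17.1 to 6.56, 5.77 and 5.89 CPM (-1.79 ± 0.24 (SE), adjusted p = 6.00e-10). The TSS region of Unc13b was lower (-0.57, adjusted p = 1.39e-04). The postsynaptic scaffold gene Dlgap3 was lower in the gene body (-1.24) and higher at the TSS region (0.88). Its gene-body region held 28.2, 25.0 and 26.9 CPM in Rosa tChIP and 10.2, 11.9 and 11.8 CPM in Camk2a tChIP. Single ChIP gave 10.4 to 12.3 CPM in Rosa and 12.3 to 14.7 CPM in Camk2a, so that Rosa tChIP stood farthest apart. Foxp1 had an intronic region that was lower (-1.33, adjusted p = 2.14e-05), while its TSS region was higher (0.24, adjusted p = 0.00324).

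Of 15 regions in neurotransmitter receptor genes, 1 was higher and 1 lower, and both lay in Grin2d, an NMDA receptor subunit. The region nearer the end of the gene (chr7:53087932-53089633) held 16.7, 25.0 and 22.3 CPM in Rosa tChIP and 30.5, 29.6 and 30.2 CPM in Camk2a tChIP, which were higher (0.52, adjusted p = 0.00726). The region nearer the start (chr7:53112620-53113379) held 11.5, 9.54 and 11.8 and 4.26, 3.25 and 4.42 CPM, which were lower (-1.44, adjusted p = 4.94e-05). In single ChIP the region nearer the start held 3.91, 5.26 and 4.91 CPM in Rosa and 4.18, 4.06 and 4.24 CPM in Camk2a. Rosa tChIP alone thus stood apart there. The call of the region nearer the end was lost in 6 of 11 alternatives. The TSS region of Grin2d was lower (-0.71, adjusted p = 3.21e-04).

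In tChIP against single ChIP, the lists stand beside 42.1% higher and 3.67% lower of gene-body regions in Rosa and 43.6% and 7.07% in Camk2a. Receptor genes were higher at 13 of 15 regions in Rosa and lower at none (median 1.22), and in Camk2a 9 were higher and none lower. Ion channel genes were higher at 11 and lower at 3 of 32 regions in Rosa, and at 20 and 2 in Camk2a. For astrocyte genes the counts were 10 higher and 0 lower of 17 in Rosa, and 5 and 4 in Camk2a, and for developmental transcription factors 19 and 0 of 39 in Rosa, and 12 and 5 in Camk2a.

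Adhesion and guidance genes were even, with 6 higher and 6 lower of 50 regions. Ptprn2, a phosphatase-like protein of dense-core vesicles, rose from 71.0, 62.0 and 73.5 to 136, 152 and 129 CPM (1.02 ± 0.09 (SE), adjusted p = 7.83e-18), and Epha4, an ephrin receptor, from 25.6, 29.8 and 19.0 to 54.8, 52.3 and 56.7 CPM. Cdh11 and Pcdh1, both cadherins, were lower, with log2 fold changes of -1.44 and -0.85. At Pcdh1, Rosa tChIP held 27.6 to 32.4 CPM and Camk2a tChIP 14.8 to 18.4 CPM. Single ChIP of Pcdh1 overlapped Camk2a tChIP, at 16.9 to 18.1 CPM in Rosa and 16.7 to 20.7 CPM in Camk2a. The TSS region of Cdh11 was higher (0.85, adjusted p = 9.68e-19).

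Tiam1, a Rac exchange factor, rose from 32.9, 29.8 and 30.8 to 62.3, 61.3 and 59.3 CPM, and Arhgef40 from 8.35, 13.7 and 17.1 to 35.1, 38.6 and 25.8 CPM, while the TSS region of Arhgef40 was lower (-0.61).

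Of 39 regions in developmental transcription factor genes, 1 was higher and 9 were lower (median -0.15), beside the 17% and 14.6% of all regions. Sox6, a SOX factor of interneurons and glial precursors, fell from 47.0, 53.1 and 37.4 to 13.8, 14.4 and 15.1 CPM (-1.67 ± 0.16 (SE), adjusted p = 2.11e-15). The only region called higher was in an intron of Tcf4, at 4.17, 0 and 1.97 CPM in Rosa tChIP and 4.92, 7.94 and 6.26 CPM in Camk2a tChIP, and its call was lost in 4 of 11 alternatives. Chromatin regulator genes were higher at 4 and lower at 3 of 20 regions. Setd1b, a writer of H3K4 methylation, rose from 28.7, 23.9 and 34.8 to 43.0, 46.6 and 41.6 CPM and Smarca2, an ATPase of the BAF complex, from 4.70, 4.17 and 1.31 to 11.5, 11.2 and 10.3 CPM. The TSS region of Smarca2 was lower (-0.20, adjusted p = 0.00154). Tet1, a 5-methylcytosine oxidase, held 60.5, 51.9 and 64.3 CPM in Rosa tChIP and 24.6, 18.8 and 21.7 CPM in Camk2a tChIP (-1.42 ± 0.13 (SE), adjusted p = 2.01e-15) at a region with a RefSeq start of Tet1 itself. Single ChIP gave 25.5 to 29.6 CPM in Rosa and 25.2 to 29.3 CPM in Camk2a at that region. Prdm13 held 9.91, 12.5 and 8.53 CPM in Rosa tChIP and 2.30, 2.17 and 2.58 CPM in Camk2a tChIP, the latter from 7, 6 and 7 counts. Its single ChIP values were lower still, at 0.818 to 2.03 CPM in Rosa and 0.716 to 0.997 CPM in Camk2a. Rosa tChIP thus stood farthest apart at both regions.

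Astrocyte genes had 17 regions in 8 genes, with 1 higher and 5 lower, inhibitory neuron genes 7 regions with 1 higher and 2 lower, endothelial and mural genes 4 with 1 lower, and microglia and oligodendrocyte genes 2 and 1 with no call. Cldn10, an astrocyte claudin, fell from 15.1, 14.3 and 10.5 to 2.62, 3.25 and 2.58 CPM (-2.23 ± 0.31 (SE), adjusted p = 3.33e-09). At 1 of 4 gene-body regions of Nfia, a factor of astrocyte development, values fell from 9.91, 8.35 and 5.25 to 1.64, 1.80 and 0.368 CPM. The Camk2a tChIP values there rest on 5, 5 and 1 counts. Another Nfia region was not called (-0.08, adjusted p = 0.731). The region called higher in the astrocyte list lay where Fgfr2 and Ctbp2 overlap (chr7:140204554-140205386), at 2.09, 2.98 and 7.22 CPM in Rosa tChIP and 9.51, 11.9 and 11.4 CPM in Camk2a tChIP, and cannot be given to either gene. The endothelial region called lower was that of Sox17. Zfp536, a zinc finger gene of interneurons, held regions of both directions, at 0.86 and -0.90, and the lower of these lost its call in 7 of 11 alternatives. At that lower region, Rosa tChIP held 9.54 to 11.0 CPM and Camk2a tChIP 4.79 to 6.50 CPM. Single ChIP overlapped Camk2a tChIP there, at 5.36 to 5.73 CPM in Rosa and 5.25 to 6.98 CPM in Camk2a.

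The genes with the most gene-body regions were Gm20388 with 10, Maml3, a coactivator of Notch, with 9, and Pde4d, a cyclic AMP phosphodiesterase, with 8, whereas 1023 genes held 1. The 10 regions of Gm20388 lay from 280101 to 3717662 bp into this long gene model. It served as host only where no shorter protein-coding gene overlapped, and its regions need not belong to 1 gene. Regions with the same host were called in different directions. In Gm20388, 2 regions were higher in Camk2a tChIP, at log2 fold changes of 1.15 and 1.68, and 2 were lower, at -1.67 and -1.12. In Maml3, 1 region was lower (-2.51, adjusted p = 0.00346), and the other 8 passed no threshold, with log2 fold changes from -0.47 to 0.70. In Pde4d, 1 region was higher (1.17, adjusted p = 0.00370) and 1 lower (-1.65, adjusted p = 0.00142).

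Of the 5 strongest gene-body regions, 1 was higher and 1 lower in Camk2a tChIP. The region with the highest mean level, inside Eif4e3 and over the RefSeq start of Foxp1 (chr6:99468132-99474399), held 283, 296 and 300.2 CPM in Rosa single ChIP, 222, 227 and 268 CPM in Rosa tChIP, 277, 263 and 278 CPM in Camk2a single ChIP and 242, 262 and 239 CPM in Camk2a tChIP. The tChIP groups overlapped there (0.07, adjusted p = 0.373). Kdm6b, an H3K27 demethylase, stood at 174, 191 and 192 CPM and 157, 158 and 163 CPM, a difference of -0.21 ± 0.06 (SE), adjusted p = 0.0044, whose call was lost in 5 of 11 alternatives. Pura and Trappc9 were at -0.04 and 0.16 and were not called, and Cacna1c was higher.

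In single ChIP, which reads all cells in both lines, few gene-body regions differed. Camk2a was higher at 15 (1.02%) and lower at 4 (0.272%), beside 0.928% and 1.22% of all regions. Without any 1 library these counts were 6 to 13 and 0 to 3, and by DESeq2 they were 2 and 0. The median log2 fold change was 0.18 over gene-body regions, 0.16 over intergenic regions and -0.02 over TSS regions. The regions called higher by the largest amounts were weak. Cab39l, a scaffold of the LKB1 complex, held 3.19, 2.15 and 2.29 CPM in Rosa and 5.66, 5.49 and 6.48 CPM in Camk2a (1.21 ± 0.26 (SE), adjusted p = 8.53e-04). Stx11, a syntaxin, held 2.17, 3.47 and 3.93 and 5.66, 6.44 and 7.73 CPM, and Bcl7c, a BAF complex subunit, 2.75, 3.59 and 4.74 and 5.66, 9.31 and 7.48 CPM. Among the lower ones, Casz1 stood at 31.6, 31.6 and 33.9 and 24.1, 24.1 and 24.9 CPM, Baz2a at 143, 142 and 142 and 120.1, 118 and 125 CPM and Arhgap23 at 36.5, 35.1 and 34.2 and 27.8, 23.4 and 28.9 CPM. The calls at these 6 regions were lost in 2 to 6 of 11 alternatives each. Casz1, a zinc finger factor, was lower in Camk2a in single ChIP (-0.41, adjusted p = 0.00569) and higher in tChIP (0.86, adjusted p = 2.77e-08). Its TSS region was lower in tChIP (-0.42, adjusted p = 1.21e-04).

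Whether the difference between the lines depended on the kind of ChIP was tested by the interaction over all 12 libraries. It was positive at 115 gene-body regions (7.81%) and negative at 208 (14.1%), beside 13.7% and 13.2% of all regions (26.9% in either direction), with a median of -0.12. The largest positive terms were at Dock4 (2.02 ± 0.39), Myh14 (1.82 ± 0.35) and Iqcj (1.78 ± 0.31). The largest negative ones were at Uaca, Rgs3, a regulator of G protein signalling, and Ccdc8. The Uaca region (chr9:60713915-60714733) had 7.68, 6.70 and 4.42 CPM in Rosa single ChIP, 8.35, 7.16 and 7.22 CPM in Rosa tChIP, 6.65, 7.40 and 8.47 CPM in Camk2a single ChIP and 0.656, 0.722 and 0 CPM in Camk2a tChIP, the last from 2, 2 and 0 counts (-4.17 ± 0.59 (SE), adjusted p = 1.32e-10). At Rgs3 the Camk2a tChIP libraries held 4, 0 and 2 counts and the interaction was -3.97 ± 0.50 (SE), adjusted p = 1.06e-12. At Ccdc8 Camk2a tChIP held 2.62, 2.17 and 1.11 CPM against 10.1 to 12.6 CPM in Camk2a single ChIP (-3.35 ± 0.39 (SE), adjusted p = 1.03e-14). The fitted sizes at Uaca and Rgs3 rest on these few counts.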

How the data were processed

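Counts were taken as deposited. According to the methods, the authors trimmed the reads, removed those matching repeats with Bowtie2 2.1.0, mapped the rest to mm9 with Bowtie 1.0.0, removed duplicates with SAMtools (0.1.19 in the submitters' processing notes and a later version in the methods), called peaks with MACS, kept those reproducible among triplicates and obtained raw read counts per region with bedtools 2.17.0. Column 4 of each deposited file holds these counts, not normalized, over the same 17993 regions in 12 libraries. How the peaks of the 4 groups were joined into 1 region list is not given in the sources used here. Removing duplicates limits the count of a narrow strong region, and removing repeat reads lowers regions rich in repeats. The counts carry no strand. The 12 input and FLAG libraries were not analysed here.

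Each region was placed by its distance to the nearest GENCODE M1 TSS, with 1000 bp as the limit. Its host was the shortest protein-coding gene it overlapped, or else the shortest other gene, and the TSS region set against it was the one of that gene with the highest total count. Depth ran from 1457261 to 8644574 counts per library. CPM used TMM factors over the 12 libraries. Differences were tested with edgeR 4.0.16 (R 4.3.3) by the quasi-likelihood test with TMM factors on all regions, with no filter on low counts, Benjamini-Hochberg adjustment over 17993 regions and adjusted p under 0.01 as the threshold. Each comparison used its 6 libraries, and the interaction used all 12. The SE was derived from the F statistic (size of the log2 fold change over the root of F). The fit was tested on simulated data. Shares were compared by two-sided exact permutation tests with scipy 1.17.1. Other computations used Python 3.11.15, pandas 2.3.3 and numpy 2.4.6, figures matplotlib 3.10.9, and DESeq2 1.42.0 served as an alternative. RefSeq starts were placed in mm9 by an exact match of 60 bases from the GRCm38 promoter table on the same chromosome, with no coordinates converted.

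The members and gene lists were chosen with earlier results of these data known. Named regions were the 8 called in each direction with the largest differences between the lines in tChIP, with a mean of at least 20 counts and no overlap of the groups, the 3 in each direction of every other comparison, the 5 with the highest mean CPM, up to 2 called regions per direction of a gene list, and the 3 genes with the most regions. Replicate libraries of a group differed over gene-body regions by about counting noise, with a chi-square per degree of freedom of 0.972 to 1.11 and r of 0.973 to 0.997. The methods call the triplicates independent experiments, and each number has its own input library, but whether they came from separate animals is not given in the sources used here, so that the p-values measure the spread between these libraries, which may be technical. Normalization, test, low-count filter, replicate block, the 12-library fit, leaving out libraries, and stricter member rules were tried as alternatives.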

Additional observations from a re-analysis of the deposited data

Results flagged for a closer look

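The difference between the lines depended on the kind of ChIP at 115 gene-body regions, where it was larger in tChIP than in single ChIP, and at 208, where it was smaller or more negative (edgeR's quasi-likelihood test of the interaction). Among these, the interaction was 2.02 at Dock4, 1.82 at Myh14 and 1.78 at Iqcj on the log2 scale. It was -4.17 at Uaca, -3.97 at Rgs3 and -3.35 at Ccdc8. The cause of these differences was not tested.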

How the results depend on the processing

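Of 192 recomputed counts, shares and ratios, 166 stayed within 1.5 times the count or 1 SD of the value as reported, 26 moved and 0 changed direction. The DESeq2 Wald test called fewer gene-body regions: 146 higher and 131 lower between the lines in tChIP, 2 higher and 0 lower in single ChIP, and 422 higher and 60 lower in tChIP against single ChIP in Camk2a. With any 1 library left out, there were 188 to 229 higher and 163 to 205 lower between the lines in tChIP, 492 to 585 and 44 to 50 in tChIP against single ChIP in Rosa, 548 to 584 and 83 to 96 in Camk2a, and 100 to 112 and 177 to 202 for the interaction. In single ChIP the counts fell to 6 to 13 higher and 0 to 3 lower. They were 6 and 0 without Camk2a single ChIP replicate 2, 7 and 1 without Rosa single ChIP replicate 2, and 8 and 2 without Rosa single ChIP replicate 3, and 1 and 2 were lower without Camk2a single ChIP replicates 1 and 3.

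The gain in share from single ChIP to tChIP was 0.488 points in Rosa and 0.483 in Camk2a with regions over 2000 bp from every TSS, and in Rosa 0.531 with protein-coding genes only and 0.590 without the strongest 1% of regions. The log2 ratio to TSS regions differed between the lines in tChIP by 0.0853 with the limit of 2000 bp. Without the strongest 1% it differed by 0.141 between the lines in single ChIP, and by 0.509 and 0.418 between tChIP and single ChIP in Rosa and Camk2a. With TSS regions of like counts, chosen after the data were seen, the 4 differences were 0.285, 0.0230, 0.00652 and 0.269. Leaving out 1 replicate number gave differences in share of 0.0753 to 0.108 and 0.126 to 0.142 points between the lines in tChIP and single ChIP, and of 0.559 to 0.576 and 0.508 to 0.539 between tChIP and single ChIP in Rosa and Camk2a. In the same order, the ratios ran from 0.0501 to 0.0710, 0.111 to 0.124, 0.431 to 0.443 and 0.370 to 0.390.

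Among named regions, 45 recomputed tests lost their call, spread over 11 regions. At Pura the log2 fold change between the lines in tChIP, which was not called, turned to 0.028 without Rosa tChIP replicate 1, and ran from -0.092 to 0.028 over the libraries left out. Same-numbered libraries of the single ChIP and tChIP groups of a line deviated together little, with r of 0.00225 to 0.0450 over 12462 regions. For different numbers r was -0.0312 to 0.0245. Such small values cannot tell whether libraries of a number shared a lysate. The main fits did not take the numbers as pairs. With the replicate number as a block, 231 and 202 gene-body regions were higher and lower between the lines in tChIP, 14 and 4 in single ChIP, 612 and 55 in tChIP against single ChIP in Rosa, 633 and 101 in Camk2a, and 118 and 209 for the interaction. The causes of these changes were not tested. Depth limits the weak regions most, since the median gene-body region had 13 to 16 counts per library in Rosa tChIP.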
